A study of Mus musculus with 8 samples.

Results

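The 13 protein-coding genes of the mouse mitochondrial genome were followed together with 7 unprocessed pseudogenes on chromosome 1 that copy them, in the kidneys of mice with and without CTRP1. The 20 members are the rows of the deposited expression table whose gene symbol starts with mt-, and the rows that start inside a short window of chromosome 1 holding the copies. They are 20 of the 23386 genes in the table. The genes of the mitochondrial ribosomal and transfer RNAs have 0 rows among them and were not analysed here.

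Messenger RNA was sequenced from left kidneys of 49-week-old mice, 4 wild-type (WT) and 4 Ctrp1-/- (KO), with 1 library a kidney. Ctrp1, listed as C1qtnf1, encodes a secreted protein of the C1q and tumour necrosis factor related family. In the KO animals a part of exon 4, the largest exon, is deleted in every tissue. The allele was made in 129S5/Sv embryonic stem cells and crossed to C57BL/6J for more than 6 generations, and WT littermates from heterozygous matings were the controls. The sex of each animal is not stated in the sources used here. Replicates were numbered in accession order within each genotype, so the numbers pair no animals.

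The mitochondrial genome encodes subunits of respiratory complexes I, III and IV and of the ATP synthase, and nuclear genes encode all the other subunits. It is transcribed from both strands into long precursors, which are cut into single messenger RNAs, most of which then receive a poly(A) tail. The kidney is rich in mitochondria because its tubules reabsorb salt and solutes by active transport. Pieces of mitochondrial DNA have also been inserted into nuclear chromosomes during evolution, and a recent insertion is nearly identical in sequence to the mitochondrial genome, so that a short read from either place can match both.

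The libraries held 15027400 to 19256378 counted reads. C1qtnf1 was at 2.74 to 4.75 scaled FPKM in WT and at 0.188 to 0.575 in KO, which is the direction the labels give (log2 fold change -2.32, limma adjusted p = 0.000768). FPKM is a count divided by the length of the gene and by the total count of the library, and scaled FPKM is that value divided by 1 median-ratio factor a library. Spearman's rho across genes was 0.985 to 0.993 within a genotype and 0.982 to 0.990 between genotypes. All 10 marker lists of kidney cell types had their members in the table, and no listed marker was at 0 in every library. KO replicate 1 stood apart from the other KO libraries in some values of the members. In others, such as mt-Co2, it was the lowest KO library but close to KO replicate 2. The ratios and many of the fold changes below are also given without KO replicate 1, and other measures are given for each library.

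The genes lie on the mitochondrial genome of build mm10, in the order mt-Nd1 (MT:2751-3707), mt-Nd2 (MT:3914-4951), mt-Co1 (MT:5328-6872), mt-Co2 (MT:7013-7696), mt-Atp8 (MT:7766-7969), mt-Atp6 (MT:7927-8607), mt-Co3 (MT:8607-9390), mt-Nd3 (MT:9459-9806), mt-Nd4l (MT:9877-10173), mt-Nd4 (MT:10167-11544), mt-Nd5 (MT:11742-13565), mt-Nd6 (MT:13552-14070) and mt-Cytb (MT:14145-15288). All are on the plus strand but mt-Nd6, and each is protein-coding without introns. The copies, all annotated as unprocessed pseudogenes on the minus strand, are RP23-8J15.1 (ENSMUSG00000101249, chr1:24615706-24616197, named Gm29216 in GENCODE vM21), RP23-8J15.2 (ENSMUSG00000102070, chr1:24614885-24615565, named Gm28661 in GENCODE vM21), RP23-8J15.3 (ENSMUSG00000100862, chr1:24613974-24614651, named Gm10925 in GENCODE vM21), RP23-8J15.4 (ENSMUSG00000101111, chr1:24613189-24613971, named Gm28437 in GENCODE vM21), RP23-8J15.5 (ENSMUSG00000101939, chr1:24612775-24613119, named Gm28438 in GENCODE vM21), Gm10222 (ENSMUSG00000067736, chr1:24612407-24612700) and RP23-8J15.7 (ENSMUSG00000100131, chr1:24611535-24612410, named Gm28439 in GENCODE vM21).

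The copies lie in tandem on chromosome 1, between 24611535 and 24616197 (build mm10), a stretch of 4663 bases. The parts of the mitochondrial genome that the copies match lie between base 6390 and base 11042, a stretch of 4653 bases. The copies stand in the same order as the genes they match, and gene and copy positions add up to 24622578 for the pairs from mt-Co1 to mt-Nd3 and to 24622577 for the pairs of mt-Nd4l and mt-Nd4. The offset thus shifts by 1 base between the copies of mt-Nd3 and mt-Nd4l, and the bases between the copies were not read. The stretch is called the block here. Relative to this block, mt-Nd1, mt-Nd2, mt-Nd5, mt-Nd6 and mt-Cytb lie outside, mt-Co1 and mt-Nd4 lie partly inside, and mt-Co2, mt-Atp8, mt-Atp6, mt-Co3, mt-Nd3 and mt-Nd4l lie whole inside. Where a gene is said to be in the block, its position on the mitochondrial genome is meant.

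The sequences show how little separates the copies from the genes. In GENCODE vM21 transcripts of the same build, 5 of the 7 copies had no base that differed from the gene over the aligned length: RP23-8J15.2 with mt-Co2 (681 bases), RP23-8J15.3 with mt-Atp6 (678 bases), RP23-8J15.4 with mt-Co3 (783 bases), Gm10222 with mt-Nd4l (294 bases) and RP23-8J15.7 with mt-Nd4 (876 bases, 63.6% of that gene). RP23-8J15.5 and mt-Nd3 differed at 1 of 345 bases, T3C, counted from 1 at the first base of the gene. RP23-8J15.1 matched 483 bases at the 3′ end of mt-Co1, 31.3% of the gene, with 1 difference, A1066T. The first 30 bases of 3 copies are printed beside the gene, 5′ to 3′, with every differing base in capitals, because they show the left end of the block, an identical pair and the single difference in mt-Nd3.
mt-Co1 (MT:6381-6410, plus strand): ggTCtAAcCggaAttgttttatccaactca
RP23-8J15.1 (chr1:24616168-24616197, minus strand): ggATtGGcAggaTttgttttatccaactca
mt-Atp6 (MT:7927-7956, plus strand): atgaacgaaaatctatttgcctcattcatt
RP23-8J15.3 (chr1:24614622-24614651, minus strand): atgaacgaaaatctatttgcctcattcatt
mt-Nd3 (MT:9459-9488, plus strand): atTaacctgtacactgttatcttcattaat
RP23-8J15.5 (chr1:24613090-24613119, minus strand): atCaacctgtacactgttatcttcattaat

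At the left end 6 bases differ within the first 13, of which the 5 that come first lie before the aligned part. In mt-Atp6 and mt-Nd3 the match starts at the first base of the gene. The share of 50-base windows of a gene that are found, letter for letter, in another vM21 transcript was 100% for mt-Co2, 99.9% for mt-Co3, 99.5% for mt-Atp6, 98.8% for mt-Nd4l and 98.0% for mt-Nd3. It was 62.2% for mt-Nd4 and 51.1% for mt-Co1, where pseudogenes elsewhere, Gm13340 on chromosome 2 among them, add to RP23-8J15.1. It was 8.19% for mt-Nd2, 7.61% for mt-Nd5 and 0% for mt-Nd1, mt-Nd6 and mt-Cytb. For mt-Atp8 it was 0% as well. Its end (MT:7927-7969) overlaps the start of mt-Atp6, which RP23-8J15.3 copies, but this stretch is shorter than a window. No copy row lies opposite to the rest of mt-Atp8, and the chromosome 1 sequence there was not analysed here.

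In every library, each gene outside or partly inside the block had a higher level than each gene whole inside it. On the scaled FPKM scale, which is per length, the order of the means over the 8 libraries was mt-Co1 (17981), mt-Cytb (16511), mt-Nd1 (9501), mt-Nd2 (6818), mt-Nd4 (5473), mt-Nd5 (4547) and mt-Nd6 (4151), then mt-Co2 (245), mt-Co3 (173), mt-Atp6 (138), mt-Nd4l (48.1), mt-Nd3 (47.7) and mt-Atp8 (2.39). The first 7 are the genes outside or partly inside the block, and the last 6 are those whole inside it. Between the sets, mt-Nd6 was 13.3 to 25.5 times as high as mt-Co2 in the same library. All 8 libraries gave this order, apart from 2 pairs of neighbours: mt-Nd5 exceeded mt-Nd6 in 7 of 8 libraries, and mt-Nd4l exceeded mt-Nd3 in 3 of 8. The order within those 2 pairs was thus not the same in all libraries.

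**Figure D1:**
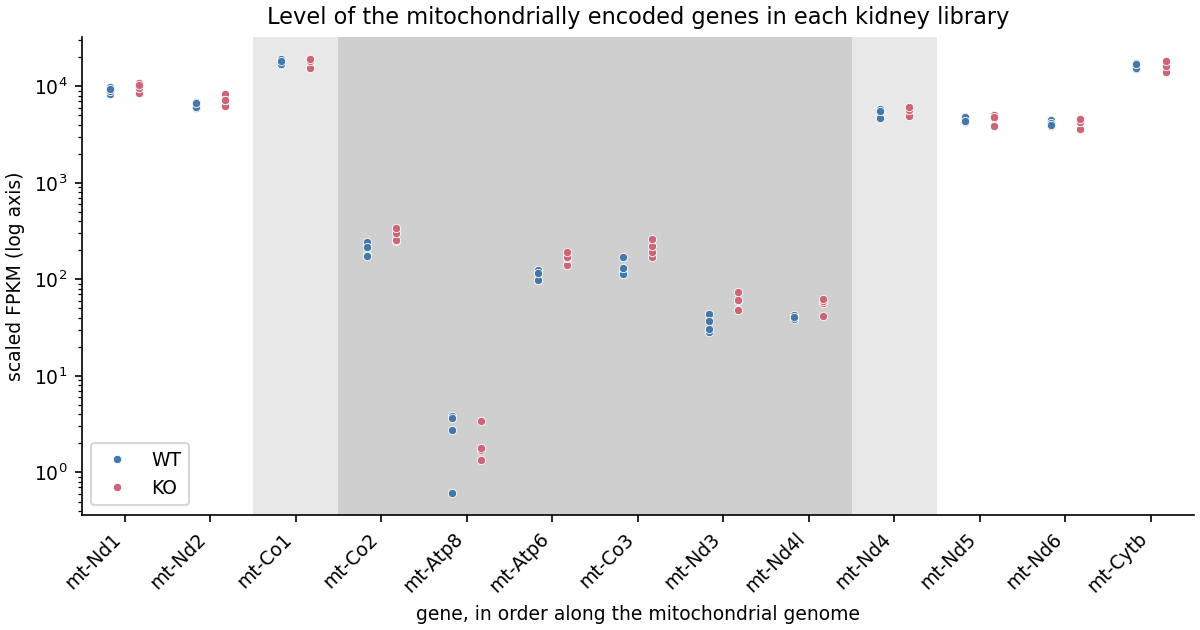
Scaled FPKM (log axis) of the 13 mitochondrially encoded genes in each of 4 WT and 4 KO kidneys, in order along the mitochondrial genome. Each point is 1 library. The pale bands mark the genes partly inside the block spanned by the chromosome 1 copies, and the dark band those whole inside it. The 7 genes outside or partly inside sit between 3614 and 19446 scaled FPKM, and the 6 genes in the dark band sit at 341 or below.

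The gap between the upper and the lower set was also seen in the read counts. The catalytic subunit of cytochrome c oxidase, mt-Co1, had 407389 to 495036 reads a library, which was 33.3% to 34.8% of all mitochondrial reads, while mt-Co2 and mt-Co3, subunits of the same enzyme, had 1931 to 3858 and 1495 to 3359 reads. The ATP synthase subunits mt-Atp6 and mt-Atp8 had 1077 to 2251 and 2 to 14 reads. The 5 genes with 98.0% or more of their windows found in another transcript were all in the lower set, and 7 of the 8 genes with 62.2% or less were in the upper set. The exception was mt-Atp8, with 0% and the fewest reads. Its 0% counts annotated transcripts only, and the chromosome 1 sequence opposite most of it was not analysed. The pairs on both sides of it, mt-Co2 and mt-Atp6, have positions that add up to the same value, 24622578. Whether mt-Atp8 has a match on chromosome 1 was thus not tested. The part of shared windows in these levels was not tested.

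The mitochondrial genes together took 7.38%, 7.66%, 8.64% and 8.10% of counted reads in WT replicates 1 to 4 and 8.83%, 7.33%, 8.46% and 8.75% in KO replicates 1 to 4. The groups overlapped (WT 7.94% ± 0.553, KO 8.34% ± 0.692, SD, n = 4 each), and the difference was 0.400 percentage points, or 0.238 without KO replicate 1. The 7 copies took 0.0481%, 0.0472%, 0.0612% and 0.0562% in WT and 0.0651%, 0.0752%, 0.0840% and 0.0900% in KO. Here every KO library lay above every WT library (WT 0.0532% ± 0.00670, KO 0.0785% ± 0.0108). In bulk kidney, a change in the number of cells of a type and a change of RNA per cell cannot be told apart.

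Between genotypes, no member passed the test: 0 of 20 were called by limma at a Benjamini-Hochberg adjusted p under 0.05, against 7 of 14022 genes tested (0.0499%). At an unadjusted p under 0.05 there were 11 members, against 15.4% of all genes in either direction. All 11 were higher in KO, against 7.18% of all genes higher and 8.26% lower. In 9 members the groups did not overlap and KO was higher, against 4.34% of all genes. With limma voom on the recovered reads 0 members were called and 11 had an unadjusted p under 0.05. The lowest limma voom adjusted p was 0.0619, for both mt-Atp6 and its copy RP23-8J15.3. Over the other settings run, the limma adjusted p was 0.0606 to 0.342 for mt-Atp6 and 0.0619 to 0.342 for RP23-8J15.3, with limma voom among them. All 11 were genes whole inside the block (5 of 6) or copies (6 of 7), and 0 were among the 7 genes outside or partly inside. The median log2 fold change was 0.05 outside, 0.08 partly inside, 0.55 whole inside and 0.56 for the copies, beside -0.00 for all genes tested. Since gene and copy in a pair share the sequence they are aligned over, they are not independent measurements.

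**Figure D2:**
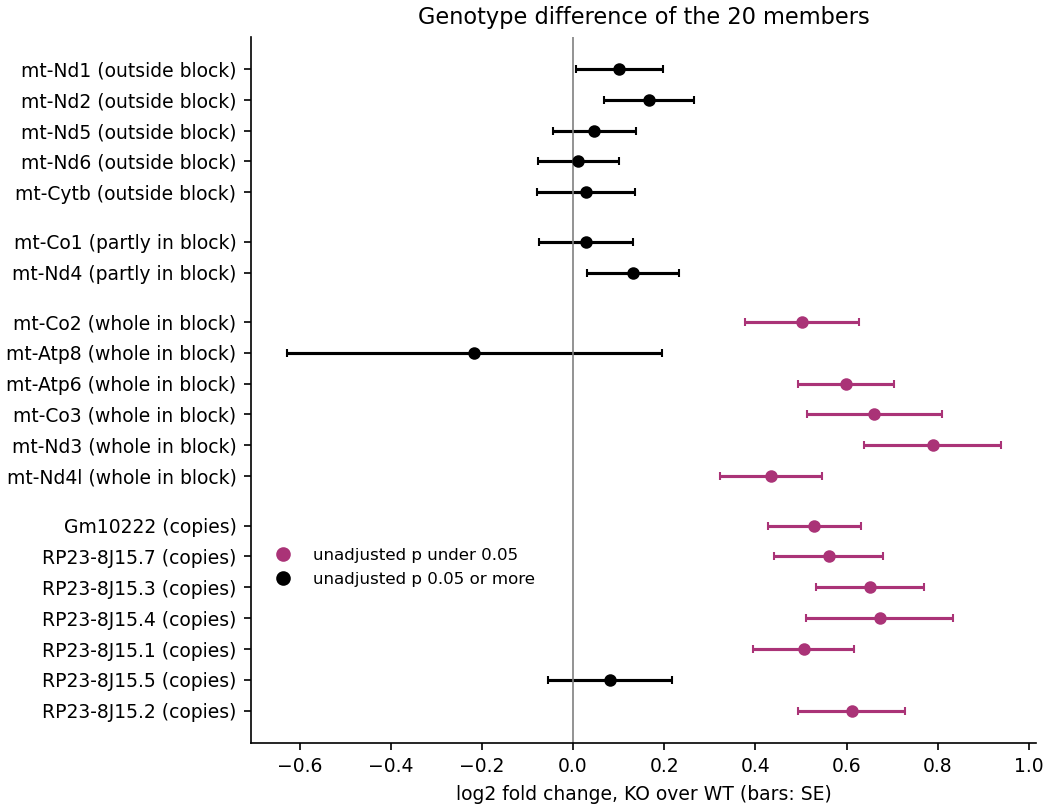
Difference between genotypes, KO over WT, for the 20 members as a log2 fold change (horizontal axis, log2 of scaled FPKM + 0.5), grouped by position relative to the copied block; points are limma estimates, bars are 1 SE, and colour marks an unadjusted p under 0.05. The genes outside or partly inside the block lie between 0.01 and 0.17, and 11 of the 13 genes and copies below them lie between 0.43 and 0.79.

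The genes outside the block differed little between genotypes. mt-Nd1, a membrane subunit of complex I, was at 8359, 9046, 9791 and 9424 scaled FPKM in WT and 10927, 8546, 9649 and 10268 in KO. The groups overlapped (log2 fold change 0.10, SE 0.10, limma adjusted p = 0.637). mt-Nd2, also of complex I, gave the widest difference of the 5, at 6416 ± 463 in WT and 7221 ± 825 in KO (0.17, SE 0.10, adjusted p = 0.436). mt-Nd5 (4465 ± 248 and 4629 ± 501), mt-Nd6 (4131 ± 299 and 4171 ± 398) and mt-Cytb, the only mitochondrially encoded subunit of complex III (16316 ± 1096 and 16705 ± 1997), had log2 fold changes of 0.05, 0.01 and 0.03 with adjusted p from 0.837 to 0.964. In mt-Nd5, mt-Nd6 and mt-Cytb, KO replicate 2 was below every WT library and the other KO libraries were not. Without KO replicate 2, the median log2 fold change of the 5 genes was 0.13, beside 0.05 with all libraries.

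The genotypes also overlapped for the 2 genes partly inside the block. mt-Co1 was at 16598, 16916, 19232 and 18403 scaled FPKM in WT and 19446, 15499, 18358 and 19396 in KO (log2 fold change 0.03, SE 0.10, limma adjusted p = 0.919). mt-Nd4, of complex I, was at 5220 ± 508 in WT and 5725 ± 589 in KO (0.13, SE 0.10, adjusted p = 0.549).

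Among the genes whole inside the block, mt-Nd3 had the widest difference. This small complex I subunit was at 28.2, 30.9, 43.4 and 37.1 scaled FPKM in WT and 47.9, 59.7, 61.1 and 73.2 in KO, from 156 to 421 reads a library. All KO libraries were above all WT libraries, 1.73 times as high on average (log2 fold change 0.79, SE 0.15, limma adjusted p = 0.113). mt-Atp6, the proton channel subunit of the ATP synthase, was at 99.6, 99.4, 124 and 116 in WT and 140, 166, 171 and 192 in KO. The groups did not overlap (1.52 times, 0.60, SE 0.10, adjusted p = 0.108). mt-Co3 was at 120, 113, 171 and 133 in WT and 172, 195, 223 and 259 in KO. The groups did not overlap, although WT replicate 3 and KO replicate 1 were next to each other (1.58 times, 0.66, SE 0.15, adjusted p = 0.151). mt-Co2, which carries the first electron acceptor of cytochrome c oxidase, was at 178, 177, 241 and 216 in WT and 251, 258, 299 and 341 in KO. These groups did not overlap either (1.42 times, 0.50, SE 0.12, adjusted p = 0.159). Without KO replicate 1, the lowest KO library in each of these 4 genes, the log2 fold changes were 0.89 for mt-Nd3, 0.68 for mt-Atp6, 0.76 for mt-Co3 and 0.56 for mt-Co2, and none was called. Without KO replicate 4 instead, the highest in each, they were 0.69, 0.53, 0.56 and 0.42, with none called.

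mt-Nd4l, another small complex I subunit, was at 43.2, 39.8, 38.9 and 40.5 scaled FPKM in WT and 42.2, 57.4, 59.9 and 63.0 in KO. KO replicate 1 lay among the WT libraries and the other KO libraries above all of them (1.37 times, log2 fold change 0.43, SE 0.11, limma adjusted p = 0.169). Without that library the log2 fold change was 0.56 and its adjusted p was 0.0174, the single call of a member in all settings run (adjusted p of mt-Nd4l 0.0174 to 0.440 over them). Without KO replicate 4 instead it was 0.37 (limma adjusted p = 0.238). mt-Atp8, the other ATP synthase subunit, was at 2.78, 3.87, 0.612 and 3.65 in WT and 1.33, 1.72, 3.39 and 1.78 in KO. With 2 to 14 reads a library, a difference of the size seen for its neighbours was not detectable (-0.22, SE 0.41, adjusted p = 0.832). Single libraries moved this value, to -0.67 without WT replicate 3 (adjusted p = 0.157, and 0.157 to 0.994 over its settings) and to -0.01 without WT replicate 2. By enzyme, the unadjusted limma p was under 0.05 for 2 of 7 complex I genes, 0 of 1 complex III gene, 2 of 3 complex IV genes and 1 of 2 ATP synthase genes, against 15.4% of all genes. Each enzyme of several subunits thus held genes on both sides, and the groups are too small to compare the enzymes.

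Of the 7 copies, 6 had log2 fold changes between 0.51 and 0.67. RP23-8J15.3, the copy of mt-Atp6, was at 139, 138, 178 and 162 scaled FPKM in WT and 200, 231, 255 and 288 in KO. All KO libraries lay above the WT libraries (1.58 times, log2 fold change 0.65, SE 0.12, limma adjusted p = 0.108). RP23-8J15.2, the copy of mt-Co2, was at 144, 144, 179 and 172 in WT and 203, 225, 263 and 290 in KO, again without overlap (1.54 times, 0.61, SE 0.12, adjusted p = 0.114). RP23-8J15.4, the copy of mt-Co3, was at 111, 109, 168 and 129 in WT and 167, 180, 225 and 252 in KO. Here WT replicate 3 and KO replicate 1 overlapped by a narrow margin (1.59 times, 0.67, SE 0.16, adjusted p = 0.159). Gm10222, the copy of mt-Nd4l, was at 34.0, 44.8, 34.2 and 34.2 in WT and 46.1, 56.0, 57.8 and 52.7 in KO. The groups did not overlap, although WT replicate 2 stood well above the other WT libraries (1.44 times, 0.53, SE 0.10, adjusted p = 0.114).

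The copies of the 2 genes partly inside the block had larger log2 fold changes than those genes, and the tests of the ratios are given further on. RP23-8J15.1, which matches the 3′ end of mt-Co1, was at 175, 185, 231 and 199 scaled FPKM in WT and 245, 256, 291 and 333 in KO. KO lay above WT without overlap (1.42 times, log2 fold change 0.51, SE 0.11, limma adjusted p = 0.151), beside 0.03 for mt-Co1. RP23-8J15.7, which matches the 5′ part of mt-Nd4, was at 48.9, 45.9, 52.0 and 54.4 in WT and 58.5, 70.5, 84.1 and 88.0 in KO. The groups did not overlap (1.5 times, 0.56, SE 0.12, adjusted p = 0.139), beside 0.13 for mt-Nd4. RP23-8J15.5, the copy of mt-Nd3, was the exception among the copies, at 186, 144, 183 and 239 in WT and 221, 207, 179 and 179 in KO. The groups overlapped throughout (0.08, SE 0.14, adjusted p = 0.803), beside 0.79 for mt-Nd3. Without KO replicate 1 the log2 fold changes were 0.74 for RP23-8J15.3, 0.70 for RP23-8J15.2, 0.77 for RP23-8J15.4, 0.60 for Gm10222, 0.57 for RP23-8J15.1, 0.67 for RP23-8J15.7 and 0.02 for RP23-8J15.5, and none was called. Without KO replicate 4 instead they were, in the same order, 0.57, 0.53, 0.57, 0.53, 0.42, 0.48 and 0.12, with none called.

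Within a library, the ratio of copy reads to gene reads needs no scaling. It was 0.922 to 1.00 for the mt-Co3 pair, 0.737 to 0.876 for the mt-Co2 pair, 0.779 to 1.11 for the mt-Nd4l pair and 1.38 to 1.49 for the mt-Atp6 pair. In these 4 identical pairs, reads were thus counted for both the gene and the copy in every library, and neither had more than 1.5 times the reads of the other. For mt-Co1 and mt-Nd4, which have long stretches outside the block, the ratios were 0.00336 to 0.00546 and 0.00574 to 0.00940. The mt-Nd3 pair stood apart from the other pairs of whole genes, with 2.43 to 6.54 reads of the copy for each read of the gene. This pair differs at base 3, and the part of that base in the ratio was not tested.

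**Figure D3:**
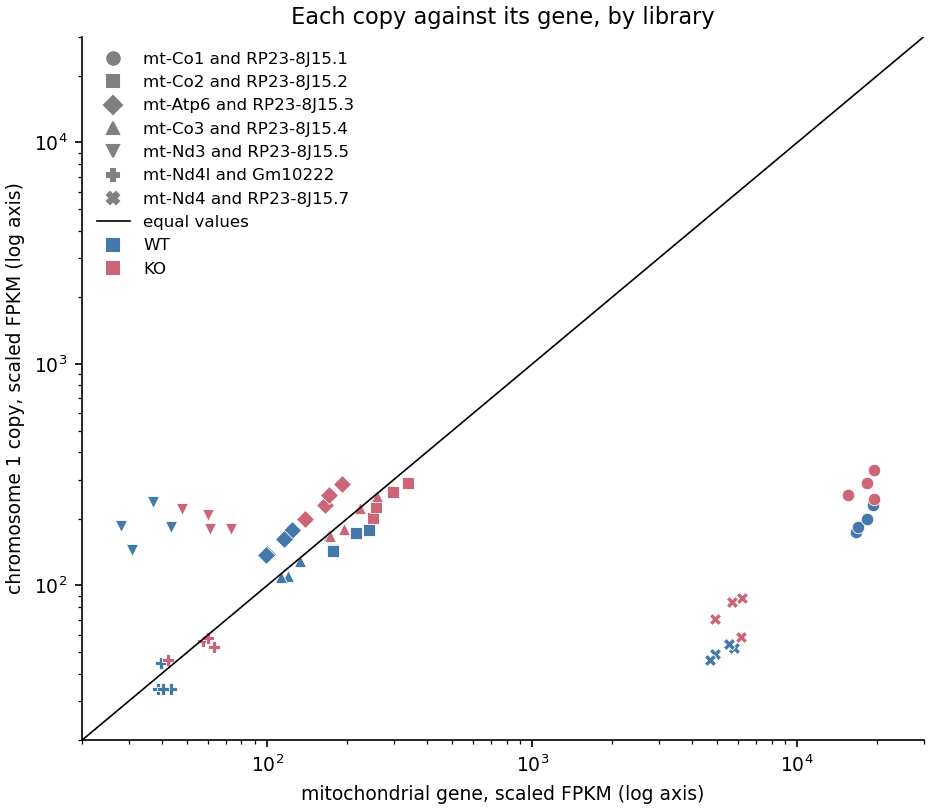
Scaled FPKM of each chromosome 1 copy (vertical) against that of the mitochondrial gene it matches (horizontal), both on log axes, for 7 pairs in 8 libraries; symbols mark the pair, colours the genotype, and the line equal values. The mt-Co2, mt-Atp6, mt-Co3 and mt-Nd4l pairs lie near the line with copy over gene of 0.740 to 1.5, the mt-Nd3 pair lies above it at 2.45 to 6.60, and the mt-Co1 and mt-Nd4 pairs lie far below it at 0.0172 or less.

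The ratios were compared between genotypes by exact permutation of the genotype labels (70 arrangements of the libraries, two-sided), whose smallest possible p is 0.0286, and with Benjamini-Hochberg adjustment over the 7 pairs. At least 5 of the 7 pairs would have to reach that p for any adjusted p to fall under 0.05, so the adjusted values say little here. None of the 7 had an adjusted p under 0.05, and 1 of 7 reached an unadjusted p under 0.05. That was the mt-Co1 pair, at 0.00336, 0.00347, 0.00383 and 0.00345 in WT and 0.00401, 0.00526, 0.00504 and 0.00546 in KO. The groups did not overlap (log2 difference 0.48, exact permutation p = 0.0286, adjusted 0.2). The mt-Nd3 pair went the other way, at 6.54, 4.62, 4.18 and 6.38 in WT and 4.56, 3.44, 2.91 and 2.43 in KO. KO replicate 1 lay between the WT libraries (-0.71, exact permutation p = 0.0571, adjusted 0.2). In the mt-Nd4 pair, KO replicate 1 was at 0.00606 and the other KO libraries at 0.00907 to 0.00940, against 0.00574 to 0.00634 in WT (0.43, exact permutation p = 0.114, adjusted 0.2). The mt-Co2, mt-Atp6, mt-Co3 and mt-Nd4l pairs differed by 0.11, 0.05, 0.01 and 0.10, each with overlapping groups (exact permutation p from 0.0857 to 0.771). Without KO replicate 1, the groups did not overlap in 4 of 7 pairs: the log2 differences were 0.58 for mt-Co1, 0.14 for mt-Co2, -0.88 for mt-Nd3 and 0.58 for mt-Nd4, each with an exact permutation adjusted p = 0.05. The mt-Atp6, mt-Co3 and mt-Nd4l pairs were then at 0.06, 0.01 and 0.04. Without KO replicate 4 instead, the mt-Co1, mt-Co2, mt-Nd3 and mt-Nd4 pairs were at 0.43, 0.11, -0.57 and 0.39 (exact permutation adjusted p = 0.2 each).

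The genes in the block and the copies were also set against the 5 genes outside it in the same library. The 6 genes whole inside the block had 7.44, 6.92, 8.64 and 7.87 reads per 1000 reads of those 5 genes in WT and 8.40, 12.1, 11.6 and 12.4 in KO. KO replicate 1 was below WT replicate 3, and the other KO libraries were above all WT libraries. The copies had 11.7, 10.8, 12.8 and 12.5 in WT and 13.0, 18.3, 17.8 and 18.4 in KO, where KO replicate 1 was only just above WT replicate 3. mt-Co1 and mt-Nd4 had 786, 750, 792 and 796 in WT and 750, 774, 783 and 780 in KO, which overlapped. The copies together had 1.48 to 1.59 times the reads of the genes whole inside the block, in all 8 libraries. Taken by member, the groups did not overlap on this measure for mt-Atp6, mt-Nd3, RP23-8J15.3 and RP23-8J15.2, 4 members against 9 on the scaled FPKM scale. There 4.34% of all genes did not overlap with KO higher, and on the present measure that share was not computed. mt-Atp6 and RP23-8J15.3 are a gene and its identical copy, so they are not separate results.

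**Figure D4:**
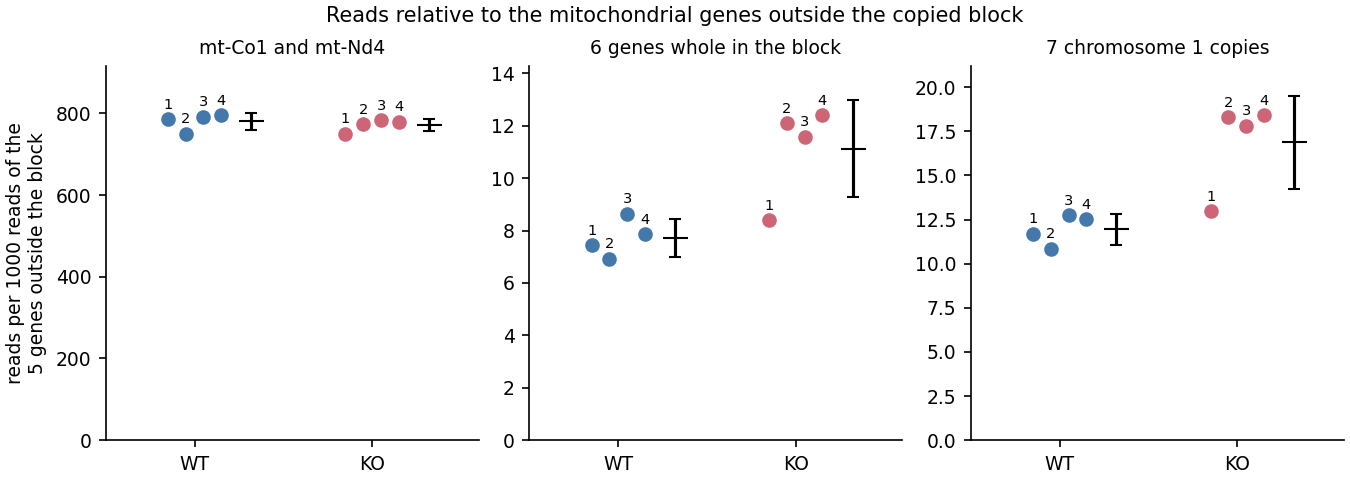
Reads per 1000 reads of the 5 mitochondrial genes outside the copied block, for mt-Co1 and mt-Nd4 (left), the 6 genes whole inside the block (middle) and the 7 chromosome 1 copies (right); each numbered point is 1 library with its replicate number, and the bars are mean ± SD of 4. The left panel overlaps at about 750 to 796, and in the other panels KO replicates 2 to 4 lie well above WT while KO replicate 1 lies at the upper WT values.

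Nuclear genes that express and maintain the mitochondrial genome did not pass the test. Of 77 tested, 0 were called by limma, 4 were higher and 4 lower at an unadjusted p under 0.05 (all genes 7.18% and 8.26%), and the median log2 fold change was -0.00. Limma voom called 0 as well. Of the 10 genes of mitochondrial transcription, the polymerase Polrmt was at 12.4 ± 1.58 scaled FPKM in WT and 10.9 ± 0.682 in KO (log2 fold change -0.18, adjusted p = 0.363). The elongation factor Tefm was at 10.4 ± 0.743 and 12.1 ± 1.03 (0.21, adjusted p = 0.249). Tfam, which packages mitochondrial DNA and starts its transcription, was at 12.9 ± 0.398 and 13.0 ± 0.987 (0.02, adjusted p = 0.922). For Polrmt and Tfam the groups overlapped, as they did for Tefm.

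Of the 18 genes of replication and upkeep, Rrm2b, a ribonucleotide reductase subunit that supplies nucleotides for mitochondrial DNA, was at 6.54 ± 0.0802 in WT and 8.38 ± 0.454 in KO, without overlap (0.33, limma adjusted p = 0.108). The polymerase Polg was at 9.67 ± 0.295 and 8.83 ± 0.612 (-0.13, adjusted p = 0.353). Of the 36 genes of RNA processing, stability and decay, Lrpprc, which stabilises mitochondrial messenger RNAs, was at 33.9 ± 2.01 and 33.7 ± 1.89 (-0.01, adjusted p = 0.962). Pnpt1, a mitochondrial RNA exonuclease, was at 6.95 ± 0.674 and 8.09 ± 0.557 (0.21, adjusted p = 0.266), and Gtpbp3, which modifies mitochondrial transfer RNAs, was at 7.36 ± 0.752 and 6.25 ± 0.611 (-0.22, adjusted p = 0.283). Of the 14 regulators of biogenesis, Ppargc1a was at 13.0 ± 0.684 and 13.1 ± 1.02 (0.01, adjusted p = 0.963). Gabpa, a transcription factor of respiratory genes, was at 8.50 ± 0.574 and 9.87 ± 0.279 (0.21, adjusted p = 0.190), and the coactivator Pprc1 was at 3.09 ± 0.0935 and 2.57 ± 0.272 (-0.23, adjusted p = 0.250). Neither Gabpa nor Pprc1 overlapped between genotypes.

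Other measures are given beside the members, and only some of them separated the genotypes. The counts of markers that follow are at an unadjusted limma p under 0.05, where 8.26% of all genes were lower in KO and 7.18% higher. Of 12 markers of the convoluted proximal tubule, 7 were lower in KO and 0 were higher, and their summed level was 5271 to 5576 scaled FPKM in WT and 4513 to 4895 in KO. Of 10 markers of the straight proximal tubule, 6 were higher and 0 lower, with sums of 1749 to 2210 in WT and 2231 to 2658 in KO. Of 10 intercalated cell markers 5 were lower, with sums of 182 to 201 and 167 to 183, while those of 9 thick ascending limb markers were 1916 to 2781 and 2244 to 2764 (1 higher). Sums of the intercalated cell and thick ascending limb lists overlapped between genotypes. Those of the other 6 lists (distal convoluted tubule, principal cell, podocyte, endothelium, leukocyte, fibroblast and smooth muscle) overlapped as well. Among those 6 lists, 2 of 9 endothelial markers and 1 of 7 tested principal cell markers were lower, and no marker was higher. None of these markers passed the adjusted threshold, and their part in the members' values was not tested. Across genes, Spearman's rho between GC content and a gene's deviation from its mean was 0.462, 0.392, -0.240 and 0.286 in WT. In KO it was -0.392, -0.0690, -0.115 and -0.358, and WT replicate 3 lay among these values. With trends of GC content and length removed in each library, mt-Nd3 was at 0.64, mt-Co3 at 0.55, mt-Atp6 at 0.48, mt-Co2 at 0.39 and mt-Nd4l at 0.27. The limma adjusted p of these genes was then 0.236 to 0.440, beside 0.108 to 0.169 in the main fit. In that setting 10 members in place of 11 were higher in KO at an unadjusted p under 0.05. Among all genes it was 603 of 13947 in place of 1007 of 14022. A list of 6 markers checked for RNA of blood and other tissues. Its 5 tested members were Hba-a1, Hbb-bs and Alas2 of erythroid cells and Alb and Apoa2 of liver, with no cardiac gene. Sums over the list were 662 to 1151 in WT and 517 to 3063 in KO. They were mostly globin: in KO, Hba-a1 was at 236 to 1376 and Hbb-bs at 265 to 1650. Apoa2 was lower in KO at an unadjusted limma p under 0.05, and 0 were higher.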

How the data were processed

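Poly(A)-selected RNA of 8 kidneys was sequenced. The authors deposited FPKM for 23386 genes, with gene length and mm10 position, per the file headers. The submitters' processing notes name STAR 2.5, HTSeq 0.6.1, CASAVA and DESeq2 without saying what each did. The annotation release, the handling of reads that match several places and the use of strand are not given in the sources used here. Reads where members overlap (mt-Atp8 with mt-Atp6, mt-Atp6 with mt-Co3, mt-Nd4l with mt-Nd4, mt-Nd5 with mt-Nd6, and Gm10222 with RP23-8J15.7) can therefore not be separated.

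FPKM times length came in whole multiples of 1 step for 100% of values (tolerance 0.01), which gave counted reads. Each library was divided by a median-ratio factor (0.978 to 1.03). The filter kept genes whose mean scaled FPKM reached 0.5 (14022, all 20 members among them). The log2 of scaled FPKM + 0.5 was fitted with limma 3.58.1 (R 4.3.3, eBayes with trend, genotype as the only term, two-sided, Benjamini-Hochberg over all genes); fold changes on this scale are understated at low values. The script was tested on simulated data. Errors are SD over 4 libraries. Copies were aligned to genes with Biopython 1.88 in GENCODE vM21 transcripts. The groups share no animal number, so the fit had no pairing.

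Members and lists were chosen with earlier results of these data known. All members were named, and from each nuclear list the called genes, or else the 2 with the smallest p, plus Tfam, Polrmt, Lrpprc and Ppargc1a. Alternatives were pseudocounts, filters, scalings, eBayes options, GC and length correction, voom on the recovered reads and leaving out each library.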

Additional observations from a re-analysis of the deposited data

Results flagged for a closer look

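Among 58 sets of 4 libraries tested with Dixon's criterion at 95%, 2 held a library far from the others, and chance alone flags about 1 in 20. Gm10222, the copy of mt-Nd4l, was at 44.8 scaled FPKM in WT replicate 2 and at 34.0 to 34.2 in the other WT libraries. The reads of RP23-8J15.7 over those of mt-Nd4 were 0.00606 in KO replicate 1 and 0.00907 to 0.00940 in the other KO libraries.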

How the results depend on the processing

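The count of members called was 0 in all settings but 1: it was 0 to 1 when each library was left out in turn, and the call (mt-Nd4l) came without KO replicate 1. The count of nuclear genes of mitochondrial expression called was likewise 0 to 1, and the call (Fastk, lower in KO) came without WT replicate 3 (adjusted p = 0.0480, and 0.0480 to 0.518 over the settings run). The adjusted p of the copy to gene ratios can hardly pass 0.05 in this design and says nothing of their stability. The count of members at an unadjusted p under 0.05 was 10 to 12, and the medians ranged from -0.04 to 0.13 for genes outside the block, from 0.43 to 0.62 for genes whole inside it and from 0.46 to 0.67 for copies. Differences near 0 changed sign: quantile normalization gave mt-Co1 -0.088, and removing GC and length trends gave mt-Co1 -0.056, mt-Nd5 -0.036, mt-Nd6 -0.11, mt-Cytb -0.066 and RP23-8J15.5 -0.066. Leaving out libraries gave mt-Co1 -0.0072 to 0.10, mt-Nd6 -0.033 to 0.079, mt-Cytb -0.018 to 0.11, RP23-8J15.5 -0.040 to 0.20 and the RP23-8J15.4 to mt-Co3 ratio -0.0081 to 0.033. The cause was not tested. Quantile normalization fixes the top ranks, which sets mt-Nd1, mt-Nd2 and mt-Nd4 to no difference, and with them the median of the genes outside the block. Depth limits mt-Atp8. No paired analysis was possible because animals share no number across genotypes.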

Other observations

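3 pseudogenes on chromosome 2, next to each other, also shared windows with the mitochondrial genes. Gm13340, which shares windows with mt-Co1, was at 10.3, 15.2, 12.6 and 15.2 FPKM in WT and 11.8, 8.81, 11.5 and 13.8 in KO. Gm13341, which shares windows with mt-Co2, was at 10.1, 16.1, 12.8 and 15.7 in WT and 11.8, 9.81, 11.9 and 14.6 in KO. In both the genotypes overlapped, and KO replicate 2 was the lowest library. Gm13339, which shares windows with mt-Nd2, was at 1.6, 2.77, 3.45 and 4.34 in WT and 4.83, 2.95, 2.54 and 2.23 in KO, where the genotypes overlapped and WT replicate 1 was lowest.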
